A study of Mus musculus with 21 samples.

Results

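Epididymal white fat of germ-free mice, which carry no microbes, was compared between dusk and morning. The members were chosen by label: the 3 germ-free libraries taken at zeitgeber time (ZT, hours after lights on) 10 and 14 were set against the 3 taken at ZT02 and ZT06, so that 6 of the 21 libraries of the series entered the comparison. ZT02 and ZT14 each had 1 library, numbered replicate 2, while ZT06 and ZT10 had 2 each. All groups were male C57BL/6j mice aged 15 to 16 weeks that ate ad libitum, and none carried an engineered allele or a drug according to the labels. The 12 libraries of conventionally raised mice, with 2 per time, served as the other arm, with 4 dusk and 4 morning libraries. Total RNA was sequenced after ribosomal RNA depletion, and total counts in the 6 libraries ranged from 28900903 to 39212798. No label ties a library to its own animal, and the p-values cover only the spread seen among these samples, which may be technical in part. The series asked how daily gene expression in fat runs with and without a gut microbiota.

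In most mouse cells, the proteins BMAL1 (encoded by Arntl) and CLOCK or NPAS2 bind E-box DNA and switch on the Per and Cry genes, whose products later block them. A second loop runs through the nuclear receptors REV-ERB (Nr1d1 and Nr1d2) and ROR, which compete at ROR elements and set the level of Arntl. In fat, this oscillator times outputs in lipid storage, lipolysis, NAD and heme synthesis, and it is also reset by glucocorticoids and by feeding, which in mice begins around dusk.

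The labelled tissue was checked against its markers first. Summed CPM (TMM-scaled read counts relative to library size) of 10 adipocyte markers ranged from 28509.8 to 31291 in the morning libraries and from 31856 to 36465 in the dusk ones, and Adipoq, the adipocyte hormone adiponectin, ranged from 2647 to 3354 CPM. Several libraries stood apart in other cell types. The ZT02 library was the highest of the 6 in mesothelial, adipose progenitor, macrophage and B cell markers, and held 828 CPM of the last against 92.0 to 279.8 in the rest. Ciliated duct markers reached 412 CPM in replicate 2 at ZT06 and 12.0 to 24.8 CPM elsewhere. Spermatid markers summed to 50.3 CPM at ZT02 and 82.0 and 8.23 CPM at ZT06, but to 1.04 to 1.95 CPM at dusk. Liver markers without Trf and Cyp2e1, which fat also expresses, reached 574 CPM at ZT14 and 49.3 to 130.4 CPM in the other 5 libraries. The part of these RNAs in the changes below was not tested, except where values without a library are given. In whole tissue, fewer cells of a type and less RNA per cell cannot be told apart.

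**Figure D1:**
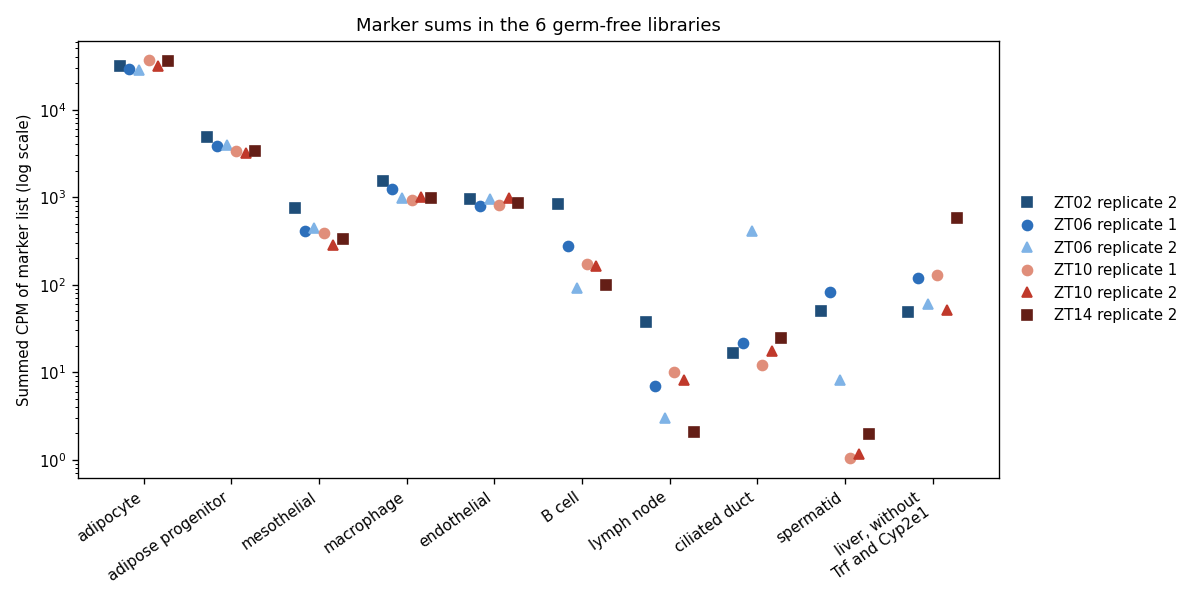
Summed CPM of 10 marker lists (log axis) in each of the 6 germ-free libraries, morning in blue and dusk in red. The ZT02 library is highest for B cell markers at 828 CPM, replicate 2 at ZT06 for ciliated duct markers at 412 CPM, and the ZT14 library for liver markers without Trf and Cyp2e1 at 574 CPM.

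With both times of each window pooled, no gene passed the test between dusk and morning. In that fit, edgeR's quasi-likelihood test of 20101 genes called 0 genes (0.00%), and the smallest Benjamini-Hochberg adjusted p was 0.227. At an unadjusted p under 0.05 there were 2531 genes (12.6%). DESeq2 on the same design called 121 higher and 95 lower, while limma-voom called 0, with 2150 genes at an unadjusted p under 0.05. Without replicate 2 at ZT06, the library with the ciliated duct RNA, the pooled edgeR fit called 10 genes higher and 13 lower. This fit counts the change from ZT02 to ZT06, or from ZT10 to ZT14, as noise. A fit listed among the alternatives gave each time its own mean and compared the average of ZT10 and ZT14 with the average of ZT02 and ZT06. It called 142 genes higher (0.706% of those tested) and 112 lower (0.557%) at dusk. Every fold change, standard error (SE) and adjusted p of a single gene below comes from this time-resolved fit unless the pooled fit is named. In the time-resolved fit, a time with 1 library, as germ-free ZT02 and ZT14 are, adds nothing to the estimate of spread. Its SE and p-values therefore rest on the spread at times with 2 libraries, most of them conventional. Medians of gene lists, and counts of members above or below zero, come from the pooled fit. "Called" means an adjusted p under 0.05 in the time-resolved fit.

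The calls rest on the single ZT02 library. Without it, the time-resolved fit called 0 genes, with 2038 at an unadjusted p under 0.05, and it also called 0 on the 9 germ-free libraries alone, with 1808 at an unadjusted p under 0.05. Of the genes called higher, the ZT02 library was the lowest of all 6 libraries in 122 of 142, and of those called lower it was the highest in 111 of 112. ZT10 against ZT06 alone, 2 libraries against 2, passed no gene, with 1547 at an unadjusted p under 0.05. Without replicate 2 at ZT06 and the ZT14 library, 77 genes were called higher and 39 lower, of which 49 and 28 were among the calls above. Apart from the calls of clock genes, the rule named 37 called genes, and 23 of them were lost without the ZT14 library, 23 without ZT10 replicate 2, 14 without ZT10 replicate 1, 15 without ZT06 replicate 1 and 10 without ZT06 replicate 2. Pcsk4, Spon2, Dtx4, Atp10a, Sdf2l1, Col5a2, Nrg4 and Nfkbia lost their calls only without ZT02 or on the 9 germ-free libraries alone. All 3 dusk libraries lay above all 3 morning libraries in 1559 genes (7.76% of those tested) and below them in 1547 (7.70%).

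**Figure D2:**
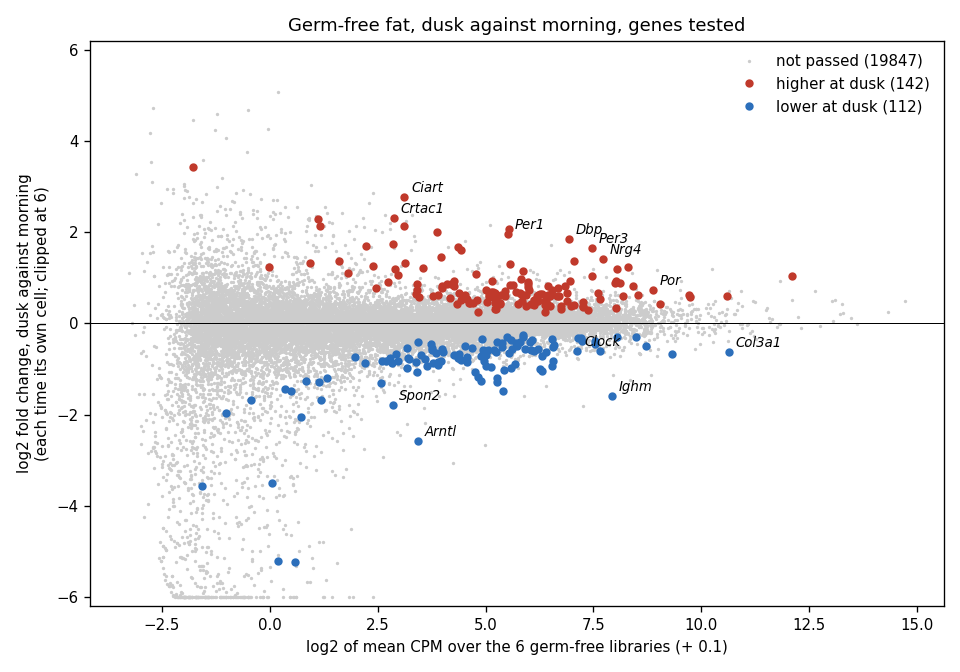
Mean level over the 6 germ-free libraries (log2 CPM) against the log2 fold change from morning to dusk, 1 point per gene, with the 142 genes called higher in red and the 112 called lower in blue. Clock genes such as Ciart, Per1 and Arntl lie at the edges of the cloud, and changes beyond 6 are drawn at 6.

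The clock genes carried the clearest change. The 4 lists of clock genes held 20 members, of which 19 were tested and Rorb was filtered for low counts. Of the 19, 8 were called higher, 3 were called lower and 8 did not pass. The libraries did not overlap in 11, while over all genes tested 7.76% were higher and 7.70% lower without overlap. All 11 calls were also made without the ZT14 library, and without it and replicate 2 at ZT06 together, and Clock was lost without ZT10 replicate 2.

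All 3 activators stood lower at dusk. Arntl was at 44.8 CPM at ZT02, 5.96 and 6.05 CPM at ZT06, 2.06 and 1.96 CPM at ZT10 and 3.75 CPM at ZT14. The ZT02 library was by far the highest, and every dusk library lay below every morning one. Its log2 fold change was -2.58 ± 0.29 (SE, adjusted p = 0.00324), or -2.89 ± 0.63 in the pooled fit (adjusted p = 0.227). ZT10 against ZT06 alone gave -1.58 ± 0.34, which did not pass (adjusted p = 0.642). Npas2, its partner beside CLOCK, was at 4.68 CPM at ZT02, 1.37 and 1.46 CPM at ZT06, 0.481 and 0.767 CPM at ZT10 and 0.613 CPM at ZT14. These levels were low, and the groups again did not overlap (log2 fold change -2.05 ± 0.30, adjusted p = 0.011). Clock itself differed least, from 167 ± 41.3 CPM (SD, n = 3) in the morning to 113 ± 9.43 CPM (SD, n = 3) at dusk, with a log2 fold change of -0.60 ± 0.10 (adjusted p = 0.0219).

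Promoters of 5 of these clock genes are shown, picked by hand as windows that hold a motif. The activators, the D-box factors and the ROR receptors act on such sequences. Each promoter is the RefSeq window of 300 bases, from 250 before to 50 after a start site, in build GRCm38.p6. In Per1 (chr11:69098699-69098998, plus strand), Ciart (chr3:95882179-95882478, minus strand) and Tef (chr15:81802423-81802722, plus strand), capitals mark the E-box CACGTG. In Per3 (chr4:151044616-151044915, minus strand), capitals mark the D-box TTATGTAA, and in Arntl (chr7:113207261-113207560, plus strand), the ROR element.
Per1: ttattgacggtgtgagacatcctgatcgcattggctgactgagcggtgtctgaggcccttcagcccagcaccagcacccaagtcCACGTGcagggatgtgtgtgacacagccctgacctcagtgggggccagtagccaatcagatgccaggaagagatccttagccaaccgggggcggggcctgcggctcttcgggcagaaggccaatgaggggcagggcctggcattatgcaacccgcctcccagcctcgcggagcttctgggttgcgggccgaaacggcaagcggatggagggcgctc
Ciart: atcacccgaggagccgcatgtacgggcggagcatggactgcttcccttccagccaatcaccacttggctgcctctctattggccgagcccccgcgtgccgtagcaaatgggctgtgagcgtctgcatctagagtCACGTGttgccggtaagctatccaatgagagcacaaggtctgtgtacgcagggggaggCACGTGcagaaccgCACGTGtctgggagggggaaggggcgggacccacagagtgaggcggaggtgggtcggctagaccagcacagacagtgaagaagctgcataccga
Tef: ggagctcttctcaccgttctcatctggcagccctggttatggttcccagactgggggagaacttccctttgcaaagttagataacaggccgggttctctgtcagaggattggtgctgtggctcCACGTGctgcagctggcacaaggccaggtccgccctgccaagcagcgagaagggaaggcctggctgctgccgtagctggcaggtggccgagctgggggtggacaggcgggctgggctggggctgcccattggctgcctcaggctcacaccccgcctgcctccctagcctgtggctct
Per3: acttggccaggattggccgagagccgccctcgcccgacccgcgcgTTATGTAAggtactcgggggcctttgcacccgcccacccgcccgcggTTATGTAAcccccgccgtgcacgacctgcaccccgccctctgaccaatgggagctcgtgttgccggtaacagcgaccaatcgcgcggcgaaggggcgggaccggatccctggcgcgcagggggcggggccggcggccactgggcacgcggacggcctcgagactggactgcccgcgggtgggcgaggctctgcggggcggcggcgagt
Arntl: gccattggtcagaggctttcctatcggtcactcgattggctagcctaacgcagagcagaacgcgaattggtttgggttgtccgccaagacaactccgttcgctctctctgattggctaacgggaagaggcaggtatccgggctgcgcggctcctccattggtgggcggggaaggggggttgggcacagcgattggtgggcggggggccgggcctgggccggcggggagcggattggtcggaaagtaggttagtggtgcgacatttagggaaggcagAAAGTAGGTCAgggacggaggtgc

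The window of Ciart held 3 E-boxes, that of Per3 held 2 D-boxes, and the ROR element of Arntl lay in the 50 bases after the start. Per1, Tef and Arntl have 2 windows each, and in Per1 and Arntl only 1 of them held the motif. For the called clock genes Per2, Dbp, Hlf, Npas2, Clock and Rora no match to these motifs was found, and some of them may lack a matched window. Over all 32851 windows of the table, 7.15% held CACGTG, which reads the same on both strands. The share was 9.13% of the 16369 windows of genes tested, 16.2% of the 148 windows of genes called higher and 4.92% of the 122 windows of genes called lower. For 100 of 140 genes called higher and 86 of 112 called lower, symbols that occur once in the count table were matched to windows. D-boxes, searched as TTATGTAA or TTACGTAA on both strands, were in 1.06% of all windows, 4.05% of those of genes called higher and 0.82% of those of genes called lower. The ROR element was in 0.384%, 0.676% and 3.28% of the same sets. No motif contains another. These are matches of letters, with no test, and not bound sites.

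The Per genes, the repressors, stood higher at dusk, opposite to the activators. The window of Per1 shown above carries 1 E-box. Per1 was at 8.78 CPM at ZT02, 28.8 and 34.8 CPM at ZT06, 53.0 and 85.8 CPM at ZT10 and 61.4 CPM at ZT14. The ZT02 library was the lowest and the groups did not overlap, with a log2 fold change of 1.97 ± 0.23 (adjusted p = 0.00398). Per2 was at 11.2 CPM at ZT02, 23.2 and 32.8 CPM at ZT06, 49.7 and 65.1 CPM at ZT10 and 95.7 CPM at ZT14, in ascending order of time. Its log2 fold change was 2.07 ± 0.27 (adjusted p = 0.00501). Per3, with its pair of D-boxes, was at 39.9 CPM at ZT02, 128 and 166 CPM at ZT06, 246 and 254 CPM at ZT10 and 233 CPM at ZT14. The dusk libraries of Per3 were close, at 244 ± 10.8 CPM (SD, n = 3), and the log2 fold change was 1.66 ± 0.16 (adjusted p = 0.00282). Cry1 stood at 10.8 ± 2.63 CPM (SD, n = 3) in the morning and 18.6 ± 3.88 CPM (SD, n = 3) at dusk and did not pass (log2 fold change 0.79 ± 0.18, adjusted p = 0.0574). Cry2 differed less, from 69.3 ± 4.27 to 81.5 ± 6.50 CPM, and did not pass either (adjusted p = 0.339). In each of these 5 repressors, every dusk library lay above every morning library.

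Of the nuclear receptors of the second loop, Rora was called. It was at 102 CPM at ZT02, 147 and 153 CPM at ZT06, 175 and 171 CPM at ZT10 and 172 CPM at ZT14, a small difference with tight dusk values (log2 fold change 0.48 ± 0.073, adjusted p = 0.0126). Nr1d1, which encodes REV-ERB alpha, was at 48.7 CPM at ZT02, 86.0 and 96.1 CPM at ZT06, 89.5 and 142 CPM at ZT10 and 22.3 CPM at ZT14. It was highest in a ZT10 library and lowest at ZT14, so the groups overlapped and no difference passed (adjusted p = 0.448). Nr1d2 stood at 124 ± 70.9 CPM in the morning and 187 ± 36.1 CPM at dusk (SD, n = 3 each, adjusted p = 0.0676).

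Output regulators were called higher in 4 of 7 cases. Dbp, a D-box activator that is a textbook target of BMAL1, was at 10.2 CPM at ZT02, 103 and 141 CPM at ZT06, 196 and 197 CPM at ZT10 and 82.2 CPM at ZT14. Dbp ran through a peak at ZT10, and its ZT14 library lay below both ZT06 libraries, so the groups overlapped. Its log2 fold change was 1.85 ± 0.27 (adjusted p = 0.011), but 0.056 without the ZT02 library (adjusted p = 0.961). Tef and Hlf, of the same family, did not overlap between groups. Tef was at 107 CPM at ZT02, 241 and 307 CPM at ZT06, 413 and 418 CPM at ZT10 and 388 CPM at ZT14 (log2 fold change 1.23 ± 0.16, adjusted p = 0.00536). Hlf went from 11.6 ± 5.83 CPM to 29.1 ± 6.29 CPM (SD, n = 3 each), a log2 fold change of 1.68 ± 0.18 (adjusted p = 0.00324). Ciart, a repressor of CLOCK and BMAL1, gave the largest fold change of the clock lists. Ciart was at 0.344 CPM at ZT02, 6.68 and 5.76 CPM at ZT06, 16.0 and 16.3 CPM at ZT10 and 6.31 CPM at ZT14. The ZT14 library lay within the ZT06 values, and the log2 fold change was 2.78 ± 0.31 (adjusted p = 0.00324), against 0.70 without ZT02 (adjusted p = 0.485). Nfil3, the D-box repressor, and Bhlhe40 and Bhlhe41, which bind E-boxes, did not pass (adjusted p = 0.884, 0.314 and 0.604). Nfil3 was at 11.9 CPM at ZT02, 4.05 and 3.11 CPM at ZT06, 1.82 and 3.89 CPM at ZT10 and 17.0 CPM at ZT14, highest at both ends of the day sampled here.

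**Figure D3:**
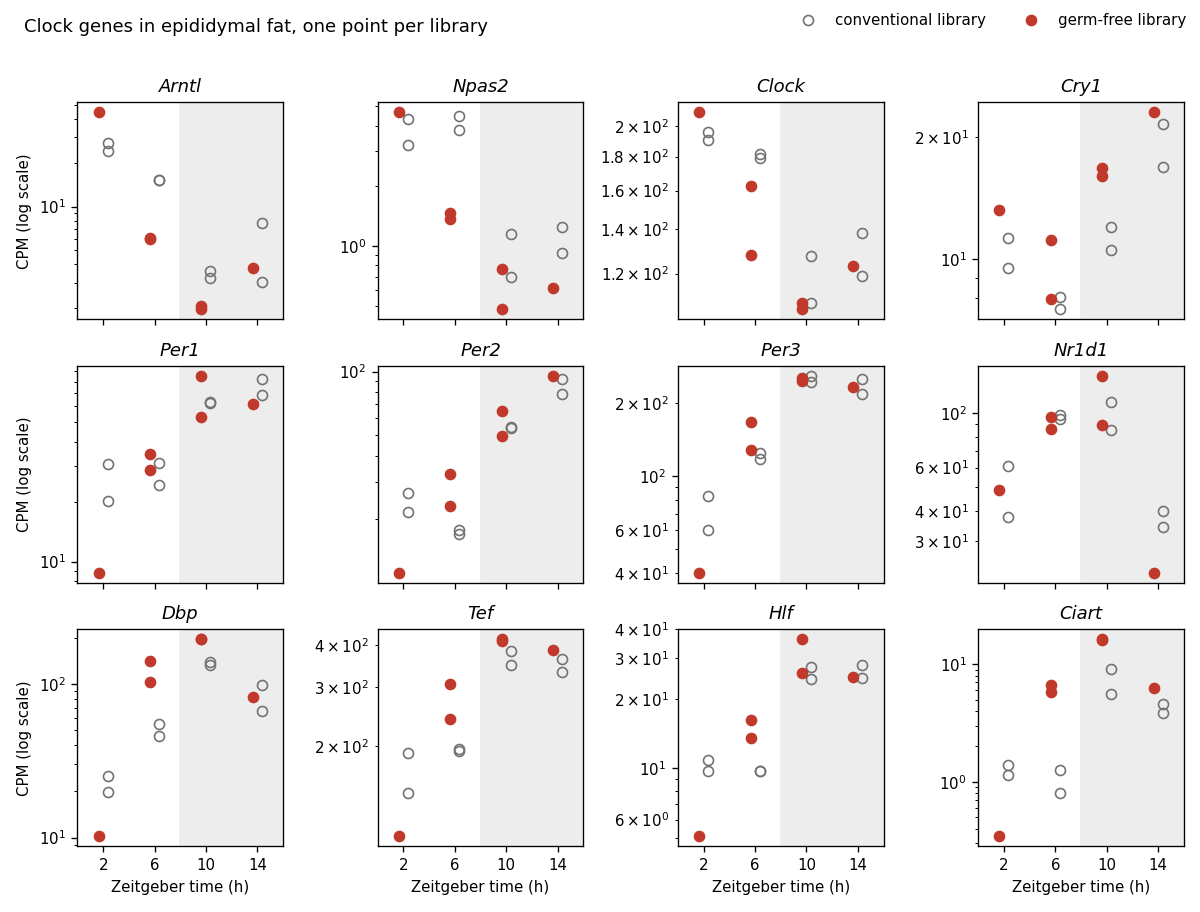
CPM (log axis) of 12 clock genes by zeitgeber time in single libraries, germ-free filled and conventional open, with the dusk window shaded. Germ-free Arntl, Npas2 and Clock lie lower at dusk, and Per1, Per2, Per3, Tef and Hlf lie higher without overlap, while Nr1d1, Dbp and Ciart are back within or under the ZT06 range at ZT14.

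Few genes tied to the clock outside its loops were called, all higher, and each of these calls was lost without the ZT14 library. Usp2, a deubiquitinase of clock proteins, was at 8.49 CPM at ZT02, 9.44 and 17.4 CPM at ZT06, 24.3 and 26.0 CPM at ZT10 and 42.5 CPM at ZT14 (log2 fold change 1.61 ± 0.31, adjusted p = 0.032) and was the single call among 8 clock modifiers. Csnk1d, a kinase that marks PER proteins for decay, did not pass, at a log2 fold change of 0.075 ± 0.061. Of 9 genes of NAD and heme synthesis and use, 3 were called higher. Nampt, the rate-limiting enzyme of NAD salvage, was at 169 CPM at ZT02, 190.5 and 209 CPM at ZT06, 267 and 231 CPM at ZT10 and 485 CPM at ZT14. Its ZT14 library was the highest, and the log2 fold change was 0.92 ± 0.14 (adjusted p = 0.011), or 0.44 without that library (adjusted p = 0.186). Alas1, the rate-limiting enzyme of heme synthesis, showed the same shape, at 150.2 CPM at ZT02, 195 and 164 CPM at ZT06, 261 and 259.8 CPM at ZT10 and 545 CPM at ZT14. For Alas1 the log2 fold change was 1.20 ± 0.20 (adjusted p = 0.0193), and 0.67 without ZT14 (adjusted p = 0.176). Por, the reductase that feeds electrons to cytochromes P450, was even across dusk, at 306 CPM at ZT02, 357 and 432 CPM at ZT06, 551 and 609 CPM at ZT10 and 567 CPM at ZT14 (log2 fold change 0.72 ± 0.13, adjusted p = 0.027). Wee1, a mitotic kinase whose gene is driven through E-boxes, went from 5.25 ± 1.17 to 12.1 ± 4.01 CPM (SD, n = 3 each, adjusted p = 0.0124), and was the single call among 25 cell cycle genes.

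Glucocorticoid and fasting response genes had 5 calls among 20 members, all higher, and the list's median log2 fold change in the pooled fit was 0.50, beside -0.012 over all genes tested. Per1 is among the 5. Tsc22d3, which encodes the glucocorticoid-induced leucine zipper, was at 137 CPM at ZT02, 116 and 93.1 CPM at ZT06, 150.2 and 139.5 CPM at ZT10 and 421 CPM at ZT14. Fkbp5, a chaperone of the glucocorticoid receptor, was at 69.7 CPM at ZT02, 70.9 and 74.2 CPM at ZT06, 82.5 and 74.2 CPM at ZT10 and 426 CPM at ZT14. In both, the ZT14 library alone stood far above the rest. Their log2 fold changes were 1.04 ± 0.16 (adjusted p = 0.0136) and 1.36 ± 0.26 (adjusted p = 0.0312). Without the ZT14 library, Tsc22d3 stood at 0.28 (adjusted p = 0.486). Sgk1, a kinase induced by glucocorticoids, was at 36.9 CPM at ZT02, 27.8 and 38.5 CPM at ZT06, 49.0 and 54.9 CPM at ZT10 and 76.5 CPM at ZT14, without overlap (log2 fold change 0.85 ± 0.16, adjusted p = 0.0312). Klf15, a factor of fasting metabolism, went from 86.4 ± 32.3 to 118 ± 26.8 CPM, and ZT10 against ZT06 alone gave -0.0074. Its call was lost without the ZT02 library (log2 fold change 0.24) and also without the ZT14 library (0.54). Of the members that did not pass, Nr3c1, the receptor itself, was flat at 459 ± 27.0 and 474 ± 34.9 CPM. Angptl4, a fasting-induced inhibitor of lipoprotein lipase, was at 627 CPM at ZT02, 183 and 267 CPM at ZT06, 270.4 and 284 CPM at ZT10 and 297 CPM at ZT14. Without the ZT14 library, 1 of the 20 was called, and that was Per1, which the clock lists also hold. That library also held the high liver marker sum given above, whose part in these values was not tested. In conventional fat, Fkbp5 was at 68.3 and 120 CPM at ZT10 and 185 and 232 CPM at ZT14, with 265 and 138 CPM at ZT02. Conventional Klf15 was at 75.7 and 78.5 CPM at ZT10 and 108 and 103 CPM at ZT14. Conventional Angptl4 had no such order, at 362 and 176 CPM at ZT10 and 292 and 169 CPM at ZT14.

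Genes of lipid storage and use showed small positive medians with few calls. The 10 adipocyte markers had a median of 0.21 in the pooled fit as well. Their summed CPM stood higher at dusk (difference of mean log2 0.22, 2-sided exact permutation p = 0.1, the smallest that 3 against 3 can give). The part of adipocyte content in the lipid medians was not tested. Of 18 genes of lipolysis and its control, 2 were called higher, and 0 without the ZT14 library. Pde3b, the phosphodiesterase through which insulin restrains lipolysis, was at 613 CPM at ZT02, 746 and 772 CPM at ZT06, 973 and 967 CPM at ZT10 and 1077 CPM at ZT14 (log2 fold change 0.58 ± 0.10, adjusted p = 0.0198). Prkar2b, a regulatory subunit of protein kinase A, went from 681 ± 62.7 to 994 ± 159 CPM (SD, n = 3 each, adjusted p = 0.0334). Both genes act to hold protein kinase A signalling down or in check. Lipe, the hormone-sensitive lipase, lay between 1346 and 1693 CPM in the morning and between 1883 and 2265 CPM at dusk without overlap, but did not pass (adjusted p = 0.143). No member passed among 24 genes of triglyceride assembly and uptake, 11 lipid droplet coats, 21 of fatty acid oxidation, 21 of glucose use, 23 of insulin signalling and 11 lipogenic regulators, whose medians in the pooled fit ran from 0.15 to 0.25. Lpl, which frees fatty acids from lipoproteins, was at 6115 CPM at ZT02, 7904 and 7505 CPM at ZT06, 9386 and 9423 CPM at ZT10 and 10028 CPM at ZT14, without overlap (adjusted p = 0.114).

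Fatty acid synthesis had 0 calls among 16 genes by edgeR, and a median of 0.18 in the pooled fit. Fasn, the fatty acid synthase, was at 4699 CPM at ZT02, 10432 and 10084 CPM at ZT06, 16702 and 10927 CPM at ZT10 and 6235 CPM at ZT14. Replicate 1 at ZT10 was the highest and the ZT02 library the lowest, with ZT14 next to it, so morning and dusk overlapped (log2 fold change 0.42 ± 0.48, adjusted p = 0.713). Scd1, the desaturase, was the most abundant member, at 18869 CPM at ZT02, 25221 and 24026 CPM at ZT06, 39939 and 25675 CPM at ZT10 and 27921 CPM at ZT14 (adjusted p = 0.382). In conventional fat the list's median was -0.95, with Fasn at 9272 ± 3769 CPM (SD, n = 4) in the morning and 3186 ± 929.9 CPM (SD, n = 4) at dusk. Replicate 2 at ZT06 was the highest of these morning libraries, at 14737 CPM against 6526 to 8783 CPM in the rest. The time-resolved fit called 1 of the 16 genes lower in conventional fat. The test of the difference between arms passed no member, with a smallest adjusted p of 0.208 in the list. Cholesterol synthesis lay below zero in both arms, with 18 of 22 members below zero in germ-free fat, a median of -0.22 there and -0.71 in conventional fat, and 0 germ-free calls. Hmgcs1, the cytosolic HMG-CoA synthase, was at 378 CPM at ZT02, 266 and 219 CPM at ZT06, 194 and 172 CPM at ZT10 and 183 CPM at ZT14 (adjusted p = 0.0901).

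Among regulators and hormones of adipocytes, Ppara and Nrg4 were called higher. The call of Ppara was lost without ZT06 replicate 1 or either ZT10 library, while that of Nrg4 was kept in each case. Ppara, the nuclear receptor of fatty acid oxidation, was at 8.43 CPM at ZT02, 13.4 and 16.8 CPM at ZT06, 23.3 and 21.6 CPM at ZT10 and 18.6 CPM at ZT14 (log2 fold change 0.86 ± 0.18, adjusted p = 0.0401) and was the single call among 9 tested genes of the thermogenic adipocyte list. Ucp1, the uncoupling protein that defines brown and beige fat, was filtered for low counts. Nrg4, a secreted growth factor of fat, was at 74.4 CPM at ZT02, 129 and 185 CPM at ZT06, 328 and 273 CPM at ZT10 and 277 CPM at ZT14. Every dusk library stood above every morning one (log2 fold change 1.42 ± 0.22, adjusted p = 0.0136). With Nampt, which is also listed as an adipokine, it made 2 calls among 14 adipokines. Adipoq and Cfd, the most abundant ones, did not pass (adjusted p = 0.66 and 0.581).

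Oxidative phosphorylation and the cytosolic ribosome differed little and in opposite directions. In the pooled fit, all 30 nuclear-encoded genes of oxidative phosphorylation had fold changes above zero, and 0 passed. Their median was 0.17 against -0.19 in conventional fat. The edgeR test of the difference between arms passed no member either (smallest adjusted p = 0.235 in the time-resolved fit). Replicate 1 at ZT10 was the highest library for both Atp5b and Atp5a1, the main subunits of ATP synthase, at 2161 and 1219 CPM, and replicate 2 at ZT10 lay within the morning range in both. All 30 cytosolic ribosomal protein genes lay below zero, with a median of -0.13 (-0.11 in conventional fat) and 0 calls. In 12 of them every dusk library lay below every morning one, which held for 7.70% of all genes tested. Genes of such a list share their libraries, so the common sign is no count of independent results.

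Few matrix and secretory genes were called, all lower at dusk. Of 33 extracellular matrix genes, 28 lay below zero and 3 were called lower (1 without the ZT14 library). The list's median was -0.23 in the pooled fit (-0.0014 in conventional fat). No member passed the edgeR test of the difference between arms (smallest adjusted p = 0.173 in the time-resolved fit). Col3a1, a fibrillar collagen, was at 2307 CPM at ZT02, 1522 and 1841 CPM at ZT06, 1367 and 1234 CPM at ZT10 and 1235 CPM at ZT14 (log2 fold change -0.64 ± 0.13, adjusted p = 0.0396). Col5a2, a collagen of the same fibrils, was at 302 CPM at ZT02, 206 and 211 CPM at ZT06, 165 and 161 CPM at ZT10 and 169.8 CPM at ZT14 (log2 fold change -0.59 ± 0.094, adjusted p = 0.0152). Eln, the elastin gene, was at 93.0 CPM at ZT02, 36.6 and 59.4 CPM at ZT06, 27.8 and 32.3 CPM at ZT10 and 38.7 CPM at ZT14. In all 3, the ZT02 library was the highest of the 6, and in Eln the groups overlapped (log2 fold change -0.97 ± 0.21, adjusted p = 0.0457). Sparc and Dcn did not pass. P4hb, which forms the collagen prolyl hydroxylase, was the single call of 17 secretion genes and was lost without ZT14, ZT06 replicate 1 or either ZT10 library, at 394 ± 45.5 and 327 ± 11.6 CPM (SD, n = 3 each, adjusted p = 0.0463). Markers of adipose progenitors, the fibroblast-like cells that make this matrix, ranged from 3816 to 4818 CPM in the morning and 3186 to 3346 CPM at dusk (difference of mean log2 -0.35, 2-sided exact permutation p = 0.1, the smallest that 3 against 3 can give). In 9 of the 10 progenitor markers, fold changes were below zero, Col3a1 is itself one of the 10, and the part of cell content in the matrix result was not tested.

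In the endoplasmic reticulum stress list, 2 of 24 genes were called, both lower, and its median was -0.12. Sdf2l1, an endoplasmic reticulum chaperone induced by unfolded proteins, was at 15.3 CPM at ZT02, 7.19 and 6.93 CPM at ZT06, 5.77 and 5.48 CPM at ZT10 and 6.13 CPM at ZT14 (log2 fold change -0.82 ± 0.10, adjusted p = 0.00498). The other 5 libraries lay close together, without overlap. Pdia6, a disulfide isomerase, went from 163 ± 28.1 to 134 ± 8.44 CPM (adjusted p = 0.032). Of 26 immediate early genes, Jund and Ier5 were called lower. The list kept 1 call without the ZT14 library or ZT06 replicate 1, and 0 without ZT06 replicate 2 or either ZT10 library. Jund, a subunit of AP-1, was at 110.3 CPM at ZT02, 72.0 and 81.0 CPM at ZT06, 54.6 and 59.3 CPM at ZT10 and 67.2 CPM at ZT14 (log2 fold change -0.57 ± 0.11, adjusted p = 0.0291). Ier5 was at 23.5 CPM at ZT02, 16.5 and 17.2 CPM at ZT06, 9.69 and 12.0 CPM at ZT10 and 10.2 CPM at ZT14 (log2 fold change -0.92 ± 0.17, adjusted p = 0.0303). Neither overlapped between the groups.

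Inflammatory genes tended below zero, with 1 call in the other direction. In the list of microbial sensing and inflammation, 18 of 21 tested genes lay below zero (median -0.25), and Nfkbia, the inhibitor of NF-kappa B, was called higher, at 37.8 CPM at ZT02, 51.4 and 56.3 CPM at ZT06, 62.1 and 67.8 CPM at ZT10 and 73.9 CPM at ZT14 (log2 fold change 0.62 ± 0.091, adjusted p = 0.011). Hp and Lbp, acute phase proteins that fat also makes, did not pass (adjusted p = 0.328 and 0.375). Beside these genes, summed macrophage markers ranged from 976 to 1529 CPM in the morning and from 919.7 to 1001 CPM at dusk (2-sided exact permutation p = 0.3), with 9 of 11 below zero. Mertk, a receptor for the uptake of dead cells, was the single macrophage marker called and stood higher (log2 fold change 0.80 ± 0.13, adjusted p = 0.0152). Fcna and Ccr1, both expressed by myeloid cells, were among the 12 lowest calls. Fcna, which encodes ficolin A, was at 76.5 CPM at ZT02, 53.6 and 28.4 CPM at ZT06, 23.9 and 24.5 CPM at ZT10 and 21.5 CPM at ZT14 (log2 fold change -1.29 ± 0.24, adjusted p = 0.0277). Ccr1, a chemokine receptor, was at 20.8 CPM at ZT02, 8.70 and 11.4 CPM at ZT06, 8.92 and 8.27 CPM at ZT10 and 5.55 CPM at ZT14, with overlap. Ighm, the heavy chain of IgM, was at 744 CPM at ZT02, 250.3 and 84.4 CPM at ZT06, 149.8 and 142 CPM at ZT10 and 93.9 CPM at ZT14. The ZT02 library held 744 CPM, and replicate 2 at ZT06 the lowest value, so the groups overlapped (log2 fold change -1.59 ± 0.33, adjusted p = 0.0427).

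The other large changes were spread over functions. Crtac1, an extracellular matrix protein, was at 1.64 CPM at ZT02, 3.71 and 3.24 CPM at ZT06, 9.53 and 12.7 CPM at ZT10 and 12.6 CPM at ZT14 (log2 fold change 2.31 ± 0.44, adjusted p = 0.032). Ripk4, a kinase of epithelial differentiation, was at 2.48 CPM at ZT02, 3.42 and 3.93 CPM at ZT06, 6.46 and 6.16 CPM at ZT10 and 28.3 CPM at ZT14, led by ZT14 (log2 fold change 2.14 ± 0.24, adjusted p = 0.00324). Hif3a, a hypoxia-inducible factor subunit, had the same lead, at 1.67 CPM at ZT02, 2.65 and 2.68 CPM at ZT06, 2.80 and 3.92 CPM at ZT10 and 13.9 CPM at ZT14. Pcsk4, a proprotein convertase, peaked at ZT10 instead, at 2.11 CPM at ZT02, 8.62 and 12.2 CPM at ZT06, 27.9 and 21.3 CPM at ZT10 and 14.6 CPM at ZT14. Acot4, a peroxisomal thioesterase whose window also holds an E-box, went from 9.53 ± 4.94 to 21.8 ± 4.76 CPM (SD, n = 3 each, adjusted p = 0.0213). None of these 5 overlapped between groups. Without the ZT14 library none of Crtac1, Ripk4 and Hif3a passed: Crtac1 stood at 2.22 (adjusted p = 0.0634), Hif3a at 0.67 (adjusted p = 0.351) and Ripk4 at 1.06 (adjusted p = 0.0909).

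Spon2, a secreted matrix protein, had the lowest fold change outside the clock among called genes with a mean of at least 1 on the log2 CPM scale. Spon2 was at 19.4 CPM at ZT02, 6.85 and 6.93 CPM at ZT06, 2.32 and 2.53 CPM at ZT10 and 4.54 CPM at ZT14. The ZT06 and ZT10 pairs were each tight, and the log2 fold change was -1.80 ± 0.19 (adjusted p = 0.00324). It also gave the smallest adjusted p of ZT10 against ZT06 alone, 0.106, at a log2 fold change of -1.50 ± 0.22. Dtx4, a ubiquitin ligase of the Deltex family, was at 105 CPM at ZT02, 40.5 and 36.1 CPM at ZT06, 21.3 and 27.5 CPM at ZT10 and 21.1 CPM at ZT14 (log2 fold change -1.48 ± 0.22, adjusted p = 0.011). Atp10a, a phospholipid flippase, was at 51.3 CPM at ZT02, 25.4 and 30.0 CPM at ZT06, 17.1 and 18.9 CPM at ZT10 and 18.2 CPM at ZT14 (log2 fold change -1.06 ± 0.11, adjusted p = 0.00324). Sox4, a transcription factor, went from 37.7 ± 12.8 to 18.6 ± 3.26 CPM (adjusted p = 0.0201). Rasl11a and Gjb5, a Ras-like protein and a connexin, were lower too (adjusted p = 0.0316 and 0.0422). Krt19, an epithelial keratin that marks mesothelium in this depot, was at 61.8 CPM at ZT02, 26.1 and 36.9 CPM at ZT06, 19.1 and 14.1 CPM at ZT10 and 20.6 CPM at ZT14 (log2 fold change -1.26 ± 0.22, adjusted p = 0.0252). Summed mesothelial markers ranged from 407 to 761 CPM in the morning and from 282 to 385 CPM at dusk, all 10 lay below zero and none was at 0, and their part in the value of Krt19 was not tested. Tppp3, which occurs in ciliated and mesenchymal cells, stood at 53.6 ± 30.3 and 23.6 ± 4.56 CPM (adjusted p = 0.0482). Its call was lost in 12 of 14 alternatives, each single library left out among them, and that of Gjb5 in 10 of 14.

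Conventional fat was compared between the same times to see where germ-free fat differs. It shares no library with the germ-free comparison. The pooled fit called 150 genes there (0.746%), and the time-resolved fit 411 (2.04%), with 4 libraries against 4 rather than 3 against 3. Of the 142 genes called higher in germ-free fat, 63 (44.4%) were also called higher in conventional fat, which is 18.3% of its 344. Of the 112 called lower, 15 (13.4%) were shared, or 22.4% of the 67 conventional ones, and 2 genes were called in opposite directions. Fold changes had the same sign in conventional fat for 128 of the 142 and for 75 of the 112. Over all genes tested, 58.5% had the same sign in both arms (Pearson r = 0.30 across genes, which are not independent replicates).

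**Figure D4:**
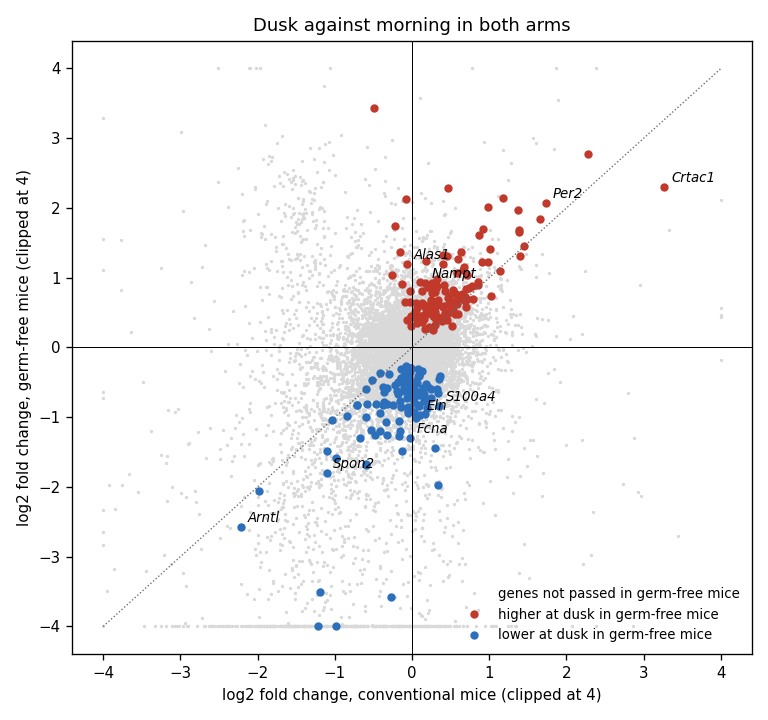
Log2 fold change from morning to dusk in conventional (horizontal) and germ-free (vertical) fat, 1 point per gene, with values beyond 4 drawn at 4 and the dotted line marking equal change. The genes called higher in germ-free fat, in red, mostly lie right of zero (128 of 142), while those called lower, in blue, spread around zero on the conventional axis (75 of 112 below it).

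In the pooled fit, the clock genes had the same direction in both arms in 17 of 19 cases, the exceptions being Nr1d1 and Nfil3. Conventional Arntl went from 20.4 ± 6.18 to 4.37 ± 2.23 CPM (SD, n = 4 each), a log2 fold change of -2.21 (adjusted p = 0.00173), and Per2 from 20.8 ± 4.47 to 69.9 ± 19.1 CPM (1.73, adjusted p = 0.00301). The smallest adjusted p for a difference between arms among the 19 was 0.404. Within the morning the arms stood apart, as values chosen after they were seen and with no test: at ZT06, Arntl was at 5.96 and 6.05 CPM in germ-free and 15.1 and 15.2 CPM in conventional fat. Ciart at ZT06 was at 6.68 and 5.76 CPM in germ-free and 0.806 and 1.25 CPM in conventional fat. At ZT02 the order turned, with Arntl at 44.8 CPM in the germ-free library and 24.0 and 27.3 CPM in the conventional ones, and Ciart at 0.344 against 1.13 and 1.39 CPM. Alas1 and Nampt did not pass in conventional fat, at 332 ± 88.0 and 326 ± 86.7 CPM for Alas1 (adjusted p = 0.88) and 228 ± 30.4 and 258 ± 48.5 CPM for Nampt (adjusted p = 0.504). The difference between arms did not pass for either (adjusted p = 0.131 and 0.15). Fcna, Eln and Atp10a differed little between the window averages of conventional fat, with log2 fold changes of -0.025, 0.10 and -0.17. Here too no difference between arms passed (adjusted p = 0.17, 0.173 and 0.0861). Within the conventional morning, Eln was at 48.3 and 56.8 CPM at ZT02 and 29.1 and 35.9 CPM at ZT06. Conventional Atp10a was at 45.4 and 40.8 CPM at ZT02 and 28.5 and 31.2 CPM at ZT06, so both were higher at ZT02, as in germ-free fat. Fcna had no such order, at 36.6 and 41.7 CPM, then 48.2 and 34.1 CPM.

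The difference between arms was tested across all genes. The pooled fit called 0 genes (0.00%, smallest adjusted p = 0.249, 1684 genes at an unadjusted p under 0.05), while DESeq2 called 18 and limma-voom 0. The time-resolved fit called 1 gene (0.00497%), S100a4, which encodes a calcium-binding protein of fibroblasts and myeloid cells. In germ-free fat S100a4 was at 24.7 CPM at ZT02, 15.7 and 15.1 CPM at ZT06, 11.5 and 11.5 CPM at ZT10 and 10.3 CPM at ZT14, lower at dusk without overlap (log2 fold change -0.84 ± 0.10, adjusted p = 0.00498). In conventional fat it went the other way, from 15.9 ± 0.502 to 20.3 ± 3.20 CPM (SD, n = 4 each), also without overlap (log2 fold change 0.35, adjusted p = 0.0572). The difference between arms was -1.19 ± 0.13 (SE, adjusted p = 0.0285). It did not pass in 9 of 13 other settings, among them the fit without the ZT02 library (-0.85, adjusted p = 0.406). Among genes that are not predicted models, the 5 smallest p-values of the pooled fit belonged to Slc2a13, Serpina3m, Serpina3k, Enho and Klhl8. Slc2a13, a myo-inositol transporter, was level in germ-free fat at 35.5 ± 3.73 and 37.6 ± 0.687 CPM and lower at dusk in conventional fat, from 61.3 ± 5.06 to 34.1 ± 4.92 CPM. The serine protease inhibitors Serpina3m and Serpina3k, whose near-identical copies make counts uncertain, were likewise lower at dusk in conventional fat (Serpina3k from 69.2 ± 29.7 to 14.3 ± 2.17 CPM) and highest at ZT14 in germ-free fat, at 66.0 and 53.5 CPM. That ZT14 library also held the high liver marker sum given above. The 15 liver markers had a median of 1.70 in germ-free and -1.77 in conventional fat in the pooled fit. The part of liver RNA in the values of Serpina3m and Serpina3k was not tested.

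**Figure D5:**
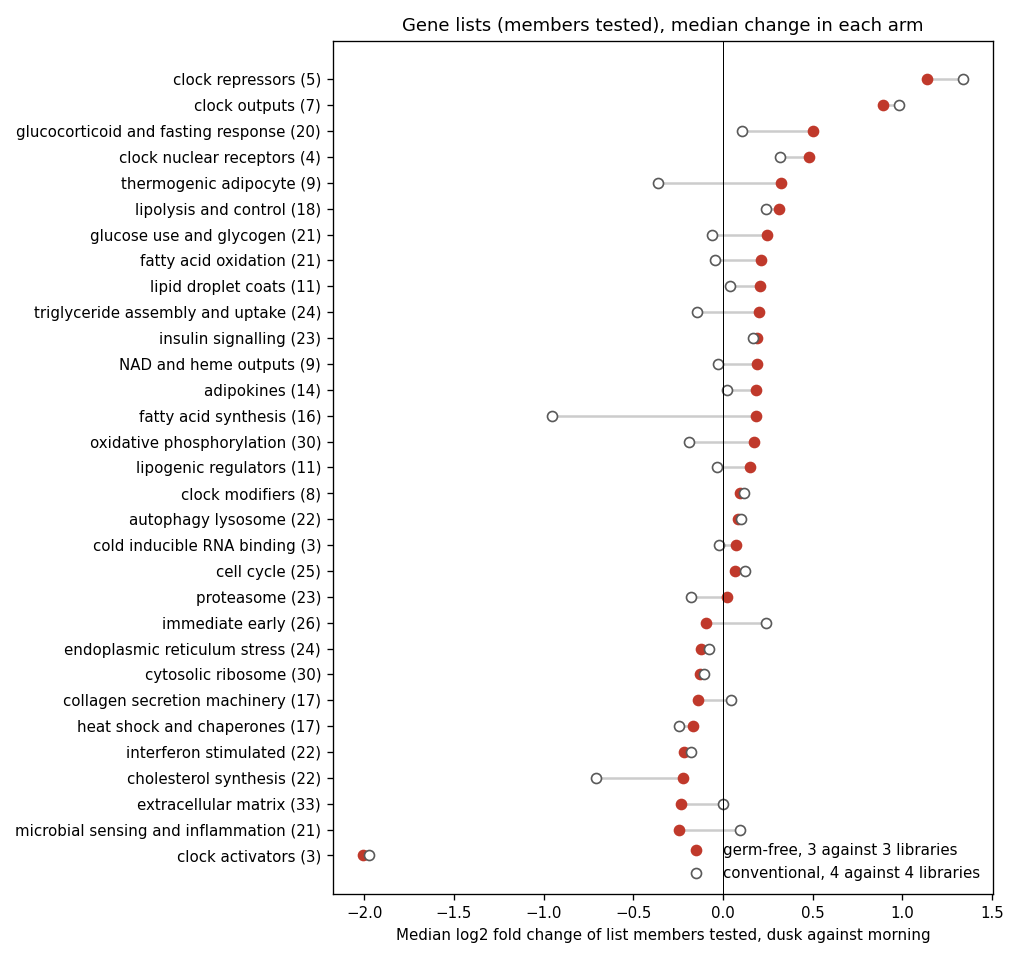
Median log2 fold change from morning to dusk over the tested members of 31 gene lists in the pooled fit, germ-free filled (3 against 3 libraries) and conventional open (4 against 4). The clock lists lie together in both arms, while fatty acid synthesis stands at 0.18 in germ-free and -0.95 in conventional fat, a difference in which no member passed the test.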

How the data were processed

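The authors deposited raw counts per gene for 21 libraries of whole epididymal fat, aligned with STAR 2.4.0i to mm10 per the submitters' processing notes. No source used here gives the counting program, its strand setting or the annotation, so antisense and overlapping genes cannot be told apart. TMM-scaled CPM were computed here from the deposited counts. Of 38087 genes, 20101 passed edgeR's filterByExpr, and 36308 identifiers matched GENCODE M21. edgeR 4.0.16 (R 4.3.3) fitted quasi-likelihood models to all 21 libraries, first with 6 cells of arm and window (15 residual degrees of freedom), then, as a listed alternative, with 12 cells of arm and time (9 residual degrees of freedom). P-values were adjusted by Benjamini-Hochberg at 0.05. Alternatives used DESeq2 1.42.0 and limma 3.58.1. Total counts of all libraries ranged from 24388294 to 48348181.

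Named were the clock lists, the 12 highest and 12 lowest called fold changes (mean log2 CPM no lower than 1), up to 4 called and 2 abundant other members of each list, and the 5 smallest p-values for the difference between arms. Since the pooled fit called none, this rule was applied to the time-resolved calls after values were seen. Fkbp5, Mertk and S100a4 were named after their values were seen. Some genes that the rule names are not reported here. The comparison and all lists were chosen with earlier results of these data known. The fits were tested on simulated counts in which the times of a window shared a mean, so changes within a window were not probed. The check for identical libraries covered the germ-free pairs at ZT06, ZT10 and ZT22, and none of these was identical.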

Additional observations from a re-analysis of the deposited data

Results flagged for a closer look

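S100a4 was the single gene whose change from morning to dusk differed between germ-free and conventional fat in the time-resolved fit, by -1.19 ± 0.13 on the log2 scale (SE, edgeR adjusted p = 0.0285). Without single germ-free libraries the adjusted p ranged from 0.0313 to 0.406, and limma-voom gave 0.0667.

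Enho and Klhl8 were picked out because the germ-free libraries lay lower at dusk without overlap and the conventional ones higher without overlap, among 550 genes examined. The 550 include genes named for a small p of the difference between arms, Enho and Klhl8 among them. Genes outside the 550 were not searched by this rule. Enho, which encodes the peptide adropin, had a log2 fold change of -0.34 in germ-free and 0.69 in conventional fat. Klhl8 had -0.24 and 0.27. That rule is no test. The edgeR test of the difference did not pass for either (adjusted p = 0.173 and 0.143 in the time-resolved fit), and both belong to the genes with the smallest p for it.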

How the results depend on the processing

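With both times pooled, edgeR called 0 germ-free genes. Leaving out single germ-free libraries gave 0 to 10 higher and 0 to 13 lower, DESeq2 121 and 95, leaving out replicate 2 at ZT06 with ZT14 5 and 2, and the time-resolved fit 142 and 112. Leaving out both libraries, and every alternative to the time-resolved fit, was chosen after seeing the data. The 150 conventional calls became 67 without a filter, 725 with DESeq2, 604 on the contrast's own libraries and 411 in the time-resolved fit. The difference between arms had 0 calls pooled, 18 with DESeq2 and 1 in the time-resolved fit. Beside the 142 and 112 time-resolved germ-free calls, DESeq2 made 520 higher and 515 lower (141 and 110 shared), the 9 germ-free libraries alone 0 and 0, and the fit without both doubted libraries 77 and 39 (49 and 28 shared). Leaving out single libraries gave 0 to 147 higher and 0 to 92 lower, with 54 and 43 without ZT06 replicate 1, 56 and 39 without ZT10 replicate 2 and 53 and 30 without ZT14. Without a filter, 174 were lower. The time-resolved difference gave 9 genes without a filter, 424 with DESeq2, 0 with limma-voom, 0 with an exon length offset, 0 without both doubted libraries and 0 to 6 without single ones. The cause of these shifts was not tested.

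Same-numbered germ-free libraries at ZT06 and ZT10 deviated with r = 0.20 over 13534 genes, but ZT06 and ZT22 with r = -0.57. Conventional libraries from ZT06 to ZT22 gave r from 0.25 to 0.49 with each other and from 0.27 to 0.51 with germ-free ZT06. Since not every pair was above 0.1, the numbers were not taken as pairs. With the replicate block, the pooled fit called 0 germ-free genes (2646 at an unadjusted p under 0.05), and the time-resolved fit 114 higher, 67 lower and 2 for the difference. It ended 0 of 11 clock calls and 14 of the other 37 named calls, among them Col3a1, Eln, P4hb, Pdia6, Jund, Ier5, Ppara, Prkar2b, Crtac1 and Usp2.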

Other observations

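Other gene groups held no call in germ-free fat in the time-resolved edgeR fit. Of 17 heat shock and chaperone genes, 13 lay below zero in the pooled fit (median log2 fold change -0.17, and -0.24 in conventional fat). Of 22 interferon-stimulated genes, 16 lay below zero (median -0.22 and -0.18). The 23 proteasome genes had a median of 0.02 against -0.18, and the 22 genes of autophagy and the lysosome 0.084 against 0.10. In none of these lists did a member pass the test of the difference between arms. Lep, the satiety hormone leptin, was at 1183 CPM at ZT02, 706 and 394 CPM at ZT06, 358 and 540.3 CPM at ZT10 and 943 CPM at ZT14, with the highest values at the outer times. Deviations in log2 CPM followed exon length with Spearman rho from -0.33 in ZT06 replicate 1 to 0.19 in ZT10 replicate 2, as a description across genes.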
